A study of Mus musculus with 4 samples.

Results

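The solute carriers are the largest family of membrane transporters in mammals, and their expression was followed here in mouse fibroblasts treated with fibroblast growth factor 2 (FGF2). Members were the probes whose identifier holds, after a fixed prefix and 1 or 2 leading zeros, the NCBI number of a mouse gene with a symbol of the form Slc plus a number. There were 152 such probes among the 46116 on the array, for 128 genes among the 8127 that this reading named. The cells were CF1 mouse embryonic fibroblasts, inactivated with mitomycin C (a DNA crosslinker that stops division) and plated on gelatine at high density, as in the feeder layers on which human embryonic stem cells are grown. For 24 h they were kept in basic human embryonic stem cell medium, which holds Serum Replacement, with FGF2 at 4, 13 or 40 ng/ml (1 array per dose) or without added FGF2 (3 control arrays, from biological replicates). The labels do not say whether treated cultures were pooled or which arrays shared a slide.

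Solute carriers move glucose, amino acids, ions, metals, nucleotides and vitamins across the plasma membrane and the membranes of organelles. Some move a single solute down its gradient, while others couple 1 solute to another, most often to sodium or protons, or exchange a pair. The number in a symbol gives the family, which groups carriers by sequence and often by substrate, so that Slc25 genes encode carriers of the inner mitochondrial membrane and Slc39 genes encode zinc importers. A symbol can match without encoding a carrier. Slc7a6os is named for lying opposite Slc7a6, and Slc9a3r1 encodes a scaffold protein that binds an ion exchanger, and both were kept because the naming rule takes them in.

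The unit of the arrays is the mean bead signal of a probe, an intensity on a linear scale in which empty probes lie near 100. Median signals were 102.5 to 110.5 on the FGF2 arrays and 110 to 113.6 on the controls. A detection score of 0.99, the limit used here, was first reached at signals of 142 to 156.5 with FGF2 and of 155.5 to 160.3 on the controls. The array at 40 ng/ml had the lowest background. Among fibroblast markers, the 5 of 13 that could be named were all detected on every array (Dcn, Col1a1, Col1a2, Col3a1 and S100a4), and their summed signal was 19257 to 23097 with FGF2 and 31867 to 38764 without. The 3 collagen genes fell (log2 -2.12 for Col1a1, -2.30 for Col1a2 and -1.47 for Col3a1), whereas Dcn (log2 0.19) and S100a4 (log2 -0.03) did not pass. In RNA from whole cultures, fewer cells of a kind and less RNA per cell cannot be told apart.

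Of the 128 Slc genes, 46 were detected on at least 3 of the 6 arrays and were tested, 6 were detected on 1 or 2 arrays and 76 on none. The share tested was 35.9%, against 42.8% of all named genes (3481 of 8127). A gene without a detected probe is not shown to be silent, because a probe can fail and the reading of its identifier can be wrong. Classes were assigned by the family number in the symbol alone, so a class can hold genes with another substrate or none. Detection differed between classes, as the plot of detection by substrate class shows. Nucleotide sugar carriers of the Golgi and endoplasmic reticulum had 7 of 9 genes tested, metal transporters 8 of 14 and mitochondrial carriers 10 of 19. The inorganic ion class had 7 of 24, the amino acid class 4 of 19 and the sugar class 2 of 11. Slc9a3r1 and Slc7a6os, which do not encode carriers, are counted in the ion and amino acid classes. No gene of the monocarboxylate class (0 of 4) or of the nucleoside class (0 of 1) was detected on any array.

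**Figure D1:**
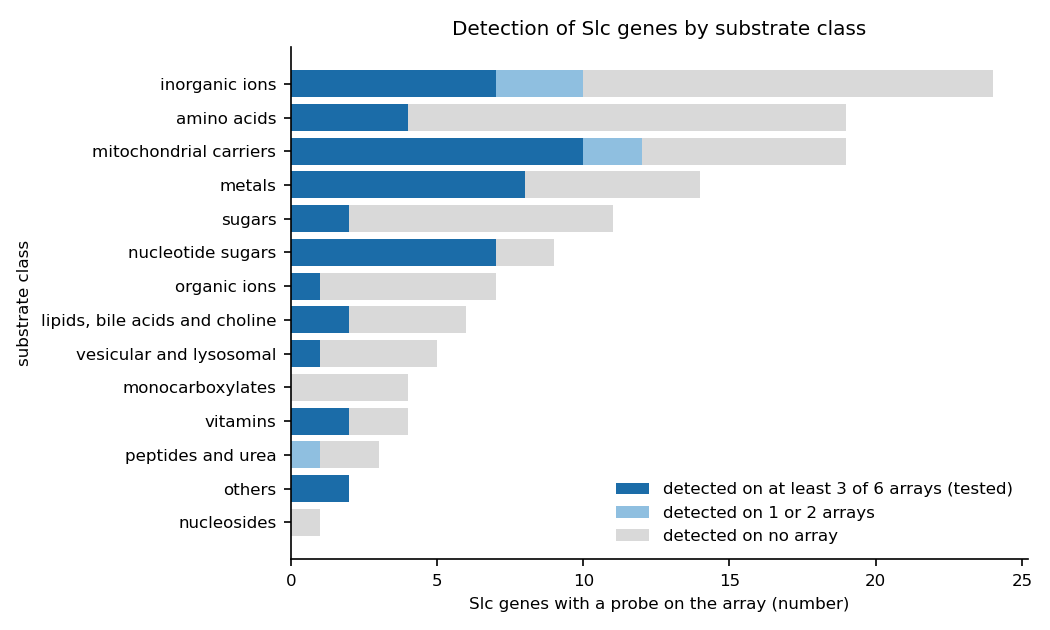
Number of Slc genes with a named probe in each substrate class (horizontal axis), split by how many of the 6 arrays detected them. Classes follow the family number in the symbol. Mitochondrial carriers have 10 tested genes of 19 and metal transporters 8 of 14, whereas the amino acid class has 4 of 19 and the sugar class 2 of 11.

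With FGF2 at the 3 doses as one group against the 3 controls, 6 Slc genes rose, 9 fell and 31 did not pass. Of those that fell, Slc7a4 and Slc12a8 met the detection filter through the control arrays alone. With detection required on all 6 arrays, 6 rose and 7 fell. Changes were log2 differences after background correction and quantile normalisation with neqc, tested with limma with Benjamini-Hochberg adjustment over all 11763 detected probes and a threshold of 0.05. The 15 called genes are 32.6% of the 46, against 36.8% of all probes tested and 37.7% of the 3481 named genes tested, so the Slc share is no higher than the background. Higher calls made up 13% of the Slc genes (18.4% of all probes) and lower calls 19.6% (18.4% of all probes). The median log2 change was -0.02 over the Slc genes and 0.005 over all probes. With neqc no Slc gene changed 2-fold, and 2 changed more than 1.5-fold. With normexp, described below, Slc38a4 fell 2.03-fold and Slc12a8 2.16-fold, the latter on FGF2 signals below the detection limit. Fewer rose when an array other than that at 4 ng/ml was left out. The counts were 2, 2 and 3 without control replicates 1, 2 and 3. Without the 13 ng/ml array 2 rose and 5 fell, and without the 40 ng/ml array 1 rose and 5 fell. Without the 4 ng/ml array 6 rose and 11 fell. Shares of all probes called in these fits were not computed, so whether the Slc genes differ from all probes there cannot be read. When arrays were scaled to one median, 1 rose and 11 fell. The normalised signals of the FGF2 and control arrays did not overlap for 27 genes in all, of which 13 had FGF2 above (28.3%, against 27.5% of all probes) and 14 had FGF2 below (30.4%, against 25.6%).

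Many of the tested Slc probes were dim, and neqc makes the changes of dim probes small. It inferred a standard deviation of 224 to 263 signal units for the negative controls, whereas a robust estimate gave 14.2 to 17.6. Normexp is a background correction that does not use the negative controls. Its log2 change is therefore given for each called gene named here where it was more than 1.5 times that with neqc. Of the 15 called genes, 9 were of this kind. Among genes that did not pass it is given for some only, and its absence does not mean that both estimates were alike. All 15 kept their direction with normexp. It called 18 of the 46 genes, 12 of them also called with neqc, and 41.7% of all probes. The plot of changes for the tested genes shows both estimates.

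**Figure D2:**
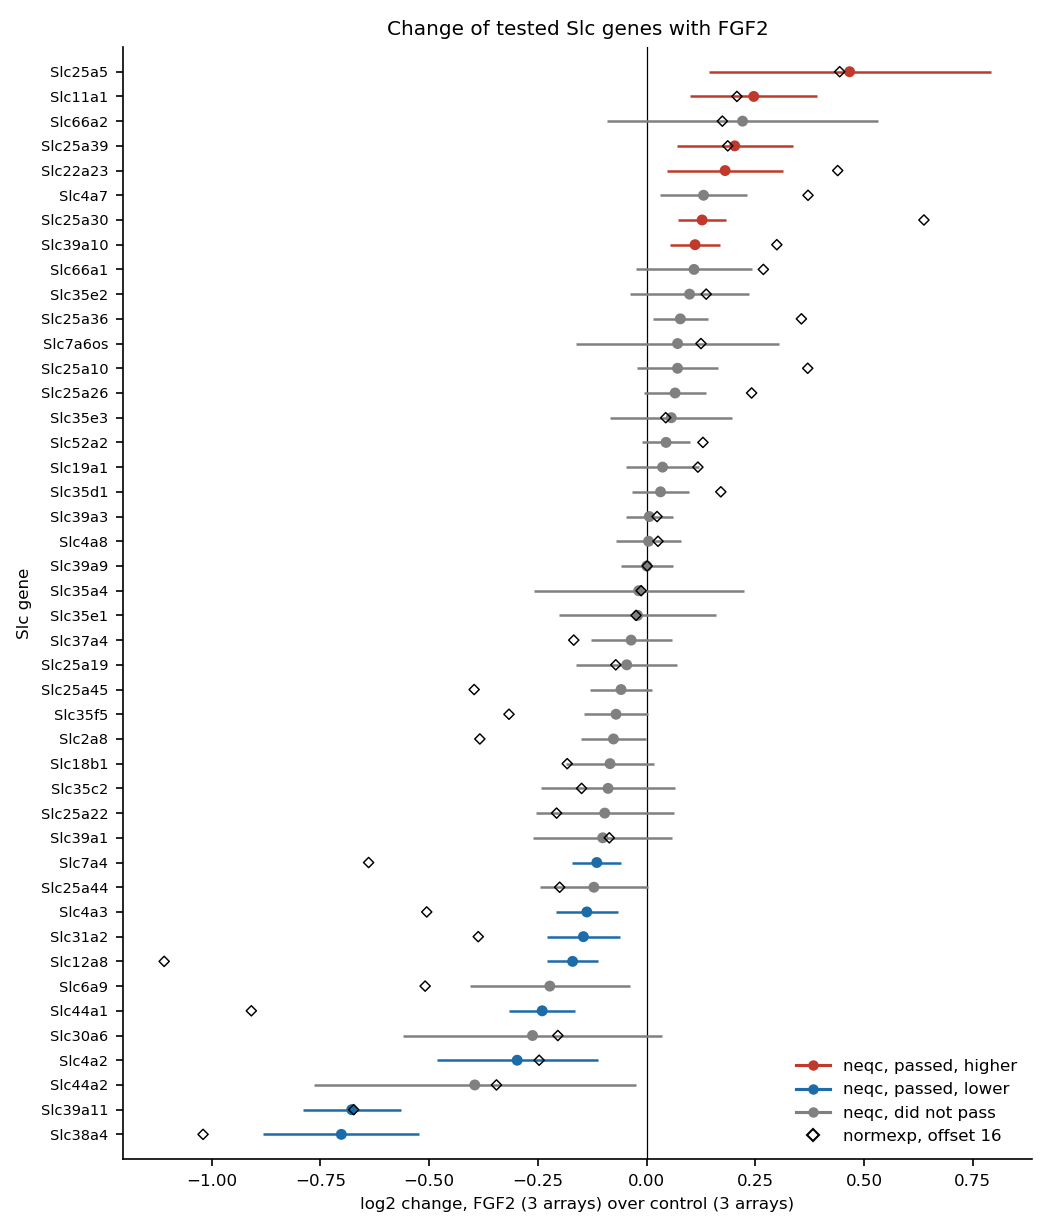
Log2 change with FGF2 (3 arrays) over control (3 arrays) for tested Slc genes. Filled circles with lines are the neqc estimate and its 95% confidence interval from limma, coloured by call, and open diamonds are the normexp estimate. Slc38a4 (-0.70) and Slc39a11 (-0.68) lie lowest and Slc25a5 (0.47) highest. For dim genes such as Slc12a8 and Slc44a1 the diamond lies far outside the circle's interval.

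In the amino acid class, which counts Slc7a6os, 2 of the 4 tested genes fell and none rose. Over all probes tested, 18.4% fell and 18.4% rose, and a difference of so few genes from them was not tested. Slc38a4 encodes a sodium-coupled carrier of small neutral amino acids (system A), and it had the largest change of any Slc gene with neqc. Its signal was 341, 314 and 275 at 4, 13 and 40 ng/ml, against 566, 593 and 570.2 on the 3 control arrays. All 3 FGF2 arrays were far below the controls, which lay within a narrow range, and the 4 ng/ml array already showed most of the difference. Slc38a4 fell 1.63-fold (log2 -0.70 ± 0.07, SE of the fit, n = 3 arrays per side, adjusted p = 0.00186), and 2.03-fold with normexp (log2 -1.02). Dose by dose, from the lowest to the highest, its log2 change was -0.62, -0.74 and -0.75, with adjusted p values of 0.0443, 0.0199 and 0.0198. A further probe of Slc38a4 was undetected on all 6 arrays. Slc7a4, a relative of the cationic amino acid carriers, was undetected on the FGF2 arrays (155, 152 and 138) and detected on the controls (199, 208 and 218). It fell at least 1.08-fold (adjusted p = 0.0133), with mean log2 signals of 7.26 with FGF2 and 7.37 without, and by 0.64 on the log2 scale with normexp. Slc7a4 met the detection filter only through the controls, so its p value is not independent of its selection. Without the 13 ng/ml or the 40 ng/ml array its call ended (adjusted p = 0.0502 and 0.055).

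Slc6a9 encodes the glycine transporter GLYT1, a sodium and chloride-coupled carrier. It had signals of 320, 252 and 239.6 at 4, 13 and 40 ng/ml, and of 339, 395 and 369.8 on the controls. The groups did not overlap, but the 4 ng/ml array lay near the lowest control, and the log2 change of -0.22 ± 0.07 did not pass (adjusted p = 0.0637). With normexp Slc6a9 passed (log2 -0.51), as it did without the 4 ng/ml array (0.0209), and its adjusted p ran from 0.0166 to 0.177 over 16 alternative settings. The Slc7a6os probe, which does not report on a carrier, gave 411, 479 and 424 with FGF2 and 415, 328 and 512 on the controls. Its log2 change was 0.07 (95% confidence interval -0.16 to 0.30, adjusted p = 0.6), and the spread of the controls covered all 3 FGF2 values. The probes of 15 amino acid carriers were detected on no array. They include those read as Slc7a11, the cystine-glutamate exchanger, and Slc7a1, the main arginine and lysine importer of many cells, with signals of 105 to 126 and of 86.2 to 110.4 with FGF2 and of 113 to 126 and 93.8 to 106 without.

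Neither of the 2 detected sugar carriers passed. Slc2a8 encodes GLUT8, a glucose transporter held mostly on internal membranes. Its signals were 169, 171 and 154 at 4, 13 and 40 ng/ml, against 209, 179.5 and 236 on the 3 control arrays. The FGF2 arrays lay below all controls, but the controls spread over a wider range than the FGF2 arrays, and the log2 change of -0.08 (95% confidence interval -0.15 to -0.0022) had an adjusted p = 0.0984. With normexp Slc2a8 passed (log2 -0.38, 1.30-fold lower), and its adjusted p ran from 0.0167 to 0.231 over 17 alternatives. Slc37a4, which carries glucose 6-phosphate into the endoplasmic reticulum, gave 187, 172 and 158.5 with FGF2 and 197, 214 and 174.5 on the controls. These ranges overlapped (log2 -0.04, 95% confidence interval -0.13 to 0.06, adjusted p = 0.504; -0.17 with normexp). Slc2a5, a fructose transporter, and Slc5a1, the sodium-coupled glucose carrier of intestine, were among the 9 genes of the sugar class below the detection limit on every array. The same was true of Slc28a2, the only gene of the nucleoside class, with signals of 143, 131 and 134 with FGF2 and of 152, 135 and 148 without. It was also true of the genes of the monocarboxylate class, Slc16a6, Slc16a7, Slc16a10 and Slc16a14. The major glucose transporter Slc2a1, the lactate carriers Slc16a1 and Slc16a3 and the equilibrative nucleoside transporter Slc29a1 are not among the 128 genes and were not analysed here.

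Metal transporters went both ways, with 2 higher, 2 lower and 4 that did not pass (18.4% of all probes were higher and 18.4% lower). Slc39a11 encodes ZIP11, a member of the zinc importer family. It read 439, 525 and 441 at 4, 13 and 40 ng/ml, against 690.2, 704 and 760.2 on the control arrays. The groups were well separated, and the 3 doses did not follow an order. Slc39a11 fell 1.60-fold (log2 -0.68 ± 0.05, adjusted p = 0.000687), the lowest adjusted p of any Slc gene, and passed at each dose (log2 -0.74, -0.61 and -0.68, with adjusted p values of 0.00946, 0.00737 and 0.00618). Slc31a2, the copper transporter CTR2 of endosomes and lysosomes, had signals of 274, 253 and 226 at 4, 13 and 40 ng/ml, against 321, 296 and 343 on the 3 control arrays. All FGF2 values were below the controls. Slc31a2 fell 1.11-fold (log2 -0.15 ± 0.03, adjusted p = 0.0228; -0.39 with normexp). That call ended without control replicate 1 (0.0794), control replicate 3 (0.0656), the 13 ng/ml array (0.0762) or the 40 ng/ml array (0.083).

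Slc11a1 encodes NRAMP1, a metal exporter of phagosomes known from macrophages. The brightest of its 3 probes gave 693, 799 and 696 with FGF2 and 648, 625 and 662 without, so that all FGF2 arrays stood above the controls. On this probe it rose 1.19-fold (log2 0.25 ± 0.06, adjusted p = 0.0239). The other 2 probes were undetected on all 6 arrays, with log2 changes of -0.0013 and -0.01 without the filter on dim probes (adjusted p = 0.988 and 0.729). The call ended without control replicate 2 (0.0618), control replicate 3 (0.058), the 13 ng/ml array (0.0768) or the 40 ng/ml array (0.0847), and also with normexp and scaling to the same median, the adjusted p running from 0.0121 to 0.0901 over 16 alternatives. Of 4 named macrophage and leukocyte markers, Cd68, Csf1r and Ptprc were undetected on all 6 arrays, and Lyz2 was detected on all 6 and fell (log2 -0.40). Their summed signal was 627 to 680.3 with FGF2 and 800 to 868 without. Slc39a10, the zinc importer ZIP10, read 295, 313 and 291 with FGF2 and 262, 251 and 278 on the controls. It rose 1.08-fold (log2 0.11 ± 0.02, adjusted p = 0.0155; 0.30 with normexp), and the call ended with scaling to one median (0.0918), when either control replicate 1 (0.0504) or the 40 ng/ml array (0.0628) was left out.

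The other 4 metal transporters did not pass. Slc30a6, a zinc carrier of the Golgi, came closest in size (log2 -0.26, 95% confidence interval -0.56 to 0.03, adjusted p = 0.143), with 793.5, 792 and 631 at 4, 13 and 40 ng/ml and 835, 859.7 and 842 on the controls. Only its 40 ng/ml value stood clearly apart. It passed with scaling to the same median, its adjusted p running from 0.0425 to 0.351 over 17 alternatives. The zinc importers Slc39a1, Slc39a3 and Slc39a9 had log2 changes of -0.10, 0.0062 and 0.00034, with signals of 1674 to 2070 with FGF2 and 1758 to 2078 without for Slc39a1.

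Among mitochondrial carriers, 3 of 10 tested genes rose and none fell, beside 18.4% of all probes that rose and 18.4% that fell. Whether this class differs from all probes was not tested. Slc25a5 encodes the adenine nucleotide translocase ANT2, which exchanges ADP and ATP across the inner membrane. Its signals were 5268, 7668 and 6582 at 4, 13 and 40 ng/ml, against 4684, 3974 and 5013 on the 3 control arrays. The 4 ng/ml array lay just above the highest control, and the 2 higher doses well above it. Slc25a5 rose 1.38-fold, the largest rise of an Slc gene (log2 0.47 ± 0.13, adjusted p = 0.0389), and by dose, from low to high, its log2 change was 0.19, 0.65 and 0.56 (adjusted p = 0.277, 0.02 and 0.0282). Leaving out any single array but that at 4 ng/ml ended the call (adjusted p = 0.0862, 0.113 and 0.0815 without control replicates 1, 2 and 3, 0.102 without 13 ng/ml and 0.123 without 40 ng/ml), and when arrays were scaled to one median (0.0555). The gene has close relatives and processed copies in the genome, and whether the probe measured Slc25a5 alone was not tested.

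Slc25a39, a mitochondrial carrier needed for glutathione import, read 3680, 4033 and 3413 with FGF2, against 2921, 2932 and 3557 on the controls. The raw ranges overlapped, because control replicate 3 exceeded the 40 ng/ml array, but the normalised values did not. It rose 1.15-fold (log2 0.20 ± 0.05, adjusted p = 0.0332), a call that held in 5 of 17 alternatives and ended without control replicate 1 (0.0951), control replicate 2 (0.0957) or any 1 of the 3 doses (0.065, 0.102 and 0.0513). Slc25a30, a carrier of the uncoupling protein branch, gave 216, 229 and 200.4 with FGF2 and 159.8, 166 and 172 without. The groups were clearly apart on a probe that lay just above the detection limit in the controls. Slc25a30 rose 1.09-fold (log2 0.13 ± 0.02, adjusted p = 0.00866) and 1.56-fold with normexp (log2 0.64). The other 7 mitochondrial carriers, which include Slc25a10, Slc25a22 and Slc25a26, had log2 changes of -0.12 (Slc25a44) to 0.08 (Slc25a36). Slc25a36, a pyrimidine nucleotide carrier, passed with normexp (log2 0.36), its adjusted p running from 0.0155 to 0.217 over 16 alternatives. Of the opposite sign, Slc25a45 passed with normexp (log2 -0.40, against -0.06 with neqc), its adjusted p running from 0.0345 to 0.35 over 16 alternatives, and Slc25a44 passed when arrays were scaled to one median (log2 -0.17), its adjusted p running from 0.0204 to 0.257 over 17 alternatives.

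Carriers of inorganic ions fell or did not pass. Of 7 tested genes, 4 fell and none rose, with a median log2 change of -0.14. Over all probes tested, 18.4% fell and 18.4% rose, and whether the class differs from them was not tested. Slc12a8, a member of the cation and chloride cotransporter family, was undetected with FGF2 and detected on every control, with signals of 118, 139.9 and 117 at 4, 13 and 40 ng/ml, against 206, 204 and 221 on the 3 control arrays. All FGF2 values lay below the detection limit. The fall was at least 1.08-fold (adjusted p = 0.00465), with mean log2 signals of 7.21 with FGF2 and 7.38 without. Slc12a8 met the detection filter only through the controls, so its p value is not independent of its selection. With normexp its log2 change was -1.11, the largest among the Slc genes, and it rests on signals below the detection limit.

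The anion exchangers Slc4a2 and Slc4a3, which swap chloride for bicarbonate, also fell. Slc4a2 (AE2) had raw signals of 1454, 1624.5 and 1345 with FGF2 that overlapped those of the controls (1645, 1542 and 2034), whereas the normalised values did not overlap. It fell 1.23-fold (log2 -0.30 ± 0.07, adjusted p = 0.0277). That call ended when control replicate 1 (0.0713) or the array at 4, 13 or 40 ng/ml (0.0518, 0.055 and 0.0941) was left out, and with normexp and scaling to the same median, the adjusted p running from 0.0268 to 0.0941 over 17 alternatives. Slc4a3 (AE3) read 209, 191 and 191 with FGF2 and 249.8, 254 and 296 without, with no overlap. It fell 1.10-fold (log2 -0.14 ± 0.03, adjusted p = 0.0163; -0.51 with normexp), and the call ended without control replicate 3 (0.0519), the 13 ng/ml array (0.0536) or the 40 ng/ml array (0.0541). A further probe of Slc4a3 was undetected on all 6 arrays. Slc4a7, a sodium bicarbonate cotransporter of the same family, had the opposite sign (log2 0.13 ± 0.04, adjusted p = 0.0528). Its signals were 261, 326 and 291 with FGF2 and 252, 225.5 and 264 on the controls. It passed with normexp (log2 0.37) and without the 4 ng/ml array (0.00938), the adjusted p running from 0.00938 to 0.159 over 17 alternatives. Slc4a8, another bicarbonate carrier, had a log2 change of 0.0044, with a 95% confidence interval of -0.07 to 0.08.

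Choline transporters of the Slc44 family were the only lipid-related carriers detected. Slc44a1 encodes CTL1, a choline transporter of the plasma membrane and mitochondria. Its signals were 198, 178 and 150.1 at 4, 13 and 40 ng/ml, against 280.1, 272 and 314 on the 3 control arrays. The groups were well apart, and the lowest signal, at 40 ng/ml, was close to the detection limit of that array. Slc44a1 fell 1.18-fold (log2 -0.24 ± 0.03, adjusted p = 0.0035) with neqc and 1.88-fold with normexp (log2 -0.91). By dose, low to high, its log2 change was -0.19, -0.25 and -0.28 (adjusted p = 0.0513, 0.0193 and 0.0163). Slc44a2 (CTL2) had a pair of tested probes, 1 bright and 1 dim, with unlike log2 changes. The bright probe read 2427, 1942 and 1752 at 4, 13 and 40 ng/ml, against 2382, 2283 and 2834 on the controls. Only the 4 ng/ml array lay among the controls, and the log2 change was -0.40 ± 0.15 (adjusted p = 0.0897). At 13 and 40 ng/ml the bright probe passed against control (log2 -0.57 and -0.55, adjusted p = 0.0217 and 0.0247), and without the 4 ng/ml array it passed in the comparison of FGF2 with control (0.00244), with a range of 0.00244 to 0.248 over the 15 alternatives that rest on this probe alone. The dim probe gave 169, 171 and 151 with FGF2 and 175, 158 and 191 without (log2 -0.0070, adjusted p = 0.851). It lay near the detection limit, where neqc makes changes small, so it cannot show whether the change of the bright probe was shared.

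**Figure D3:**
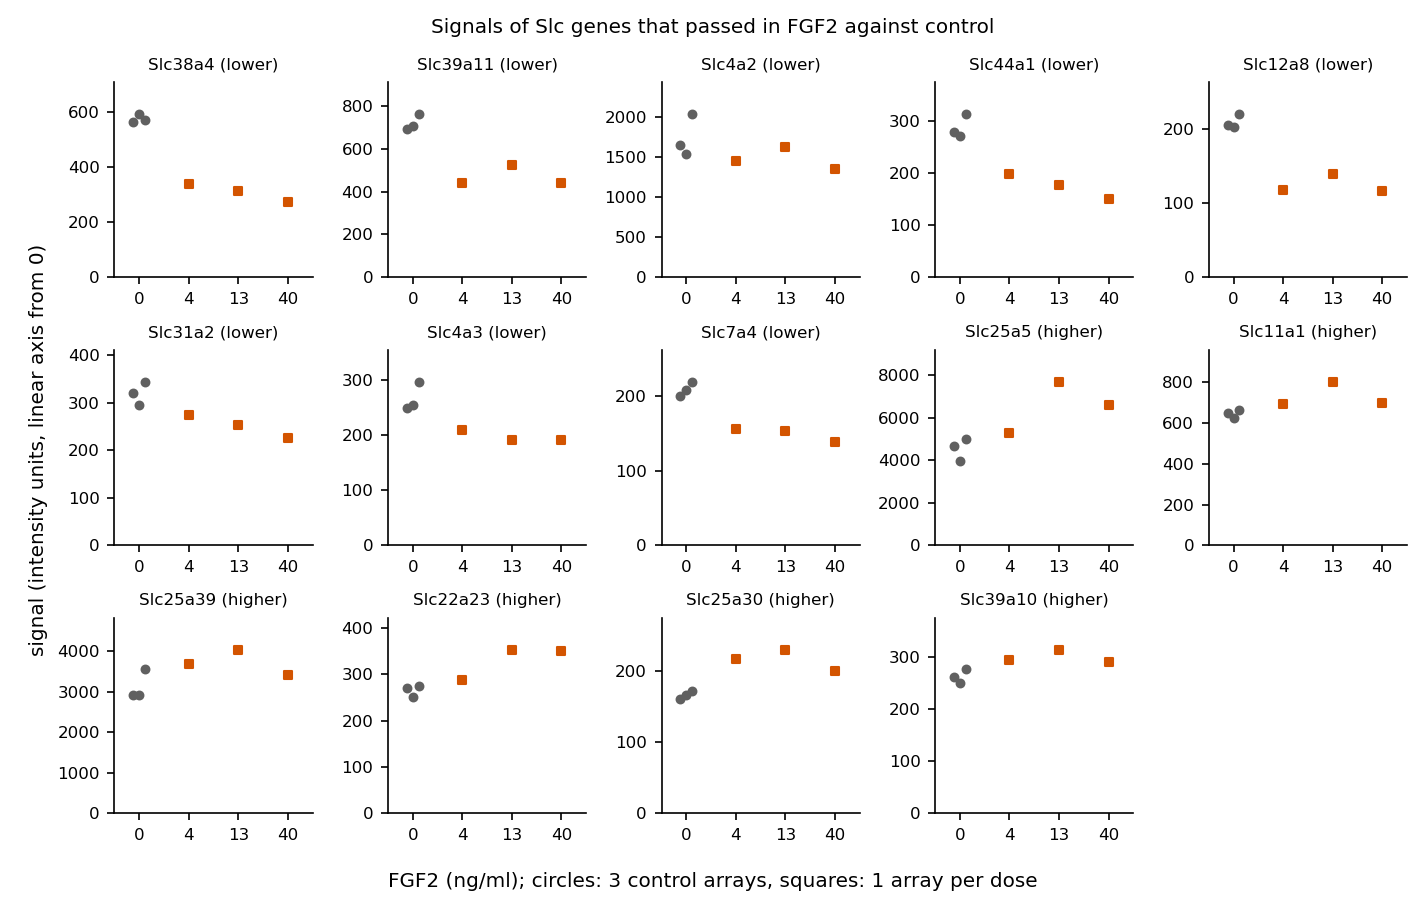
Signal (intensity units, linear axis from 0) by FGF2 dose for Slc genes that passed, those lower first and then those higher. Circles are the 3 control arrays at dose 0 and squares the single arrays at 4, 13 and 40 ng/ml. Slc38a4, Slc39a11, Slc44a1 and Slc12a8 drop at the lowest dose, whereas Slc25a5 and Slc22a23 stay near the controls at 4 ng/ml.

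Nucleotide sugar carriers of the Slc35 family were widely detected (7 of 9) and had no call (0 of 7 in limma, with log2 changes of -0.09 to 0.10 and 0 unadjusted p values under 0.05). Several of them varied as much between controls as between groups. Slc35e1 gave 254, 294 and 222 with FGF2 and 273, 206 and 348 without, and Slc35a4 852, 949 and 794 with FGF2 and 887, 755 and 1008 without. In both, control replicate 2 was the lowest and control replicate 3 the highest array of the study. The log2 changes were -0.02 for each, with 95% confidence intervals of -0.20 to 0.16 and -0.26 to 0.22. Slc35f5 fell with normexp (log2 -0.32 in place of -0.07) and passed there and without the 4 ng/ml array (0.034), the adjusted p running from 0.034 to 0.296 over 17 alternatives. Slc22a23, an orphan member of the organic ion carriers and the only one of 7 that was detected, rose. It read 288, 352 and 351 at 4, 13 and 40 ng/ml, against 271, 250.2 and 275 on the controls. All FGF2 arrays were above the controls, the lowest dose by little. Slc22a23 rose 1.13-fold (log2 0.18 ± 0.05, adjusted p = 0.0462; 0.44 with normexp), and leaving out any single array but that at 4 ng/ml ended the call (adjusted p = 0.0957, 0.118 and 0.12 without control replicates 1, 2 and 3, and 0.117 and 0.0944 without 13 and 40 ng/ml).

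The remaining tested carriers did not pass. They are the folate carrier Slc19a1 (log2 0.04), the riboflavin transporter Slc52a2 (0.04), the vesicular polyamine carrier Slc18b1 (-0.08), and Slc66a1 and Slc66a2, of which Slc66a1 exports cationic amino acids from lysosomes (0.11 and 0.22). Slc66a2 had the widest interval of these (-0.09 to 0.53), with signals of 1416 to 1500 with FGF2 and 1395, 1065.5 and 1474 on the controls, where control replicate 2 stood below the rest.

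Dose was examined in 2 ways. Against the 3 controls, with the single treated array assumed to vary like them, 3 Slc genes passed at 4 ng/ml (6.52%, against 13.9% of all probes), namely Slc38a4, Slc39a11 and Slc12a8, all lower (6.57% of all probes were lower and 7.31% higher). At 13 ng/ml 7 passed (15.2%, against 25.7%, of which 13.3% higher and 12.4% lower). Among those lower were Slc38a4, Slc39a11, Slc44a1 and Slc44a2, and those higher were Slc25a5 and Slc22a23. At 40 ng/ml 7 passed (15.2%, against 24.8%, of which 13% higher and 11.8% lower), namely Slc38a4, Slc39a11, Slc44a1, Slc44a2 and Slc12a8 lower and Slc25a5 and Slc22a23 higher. Slc12a8 met the detection filter through the control arrays alone. These comparisons share their control arrays, and shares of all probes in fits that left out a control were not computed. Leaving out control replicate 1 left 0, 1 and 1 genes at the 3 doses, from low to high. Without control replicate 2, 1 passed at 4 ng/ml and 4 at 13 ng/ml. The slope per log2 of dose among the treated arrays passed in limma for 0 of 46 Slc genes, as for 0% of all 11763 probes. Its unadjusted p was under 0.05 for 2 of the 46 Slc genes and for 1236 of the 11763 probes. With a trended robust prior 0 Slc genes and 71 probes passed. The 2 were Slc22a23, with a slope of 0.06 ± 0.01 per log2 of dose (adjusted p = 0.349), and the bright probe of Slc44a2, with -0.15 ± 0.05 (adjusted p = 0.448). With 1 array per dose, a graded response over this range could not be told from the spread.

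Promoter sequence is shown for the called genes with the largest changes with neqc, Slc38a4 and Slc39a11 among those that fell and Slc25a5 and Slc11a1 among those that rose, so that the DNA upstream of carriers moving in opposite directions can be read side by side. Each run holds the 250 bases before the most upstream RefSeq start of the gene (assembly GRCm38.p6), 5′ to 3′ on the strand of the gene, in lower case with motif matches in capitals.
Slc38a4 (chr15:97055957-97056206, minus strand): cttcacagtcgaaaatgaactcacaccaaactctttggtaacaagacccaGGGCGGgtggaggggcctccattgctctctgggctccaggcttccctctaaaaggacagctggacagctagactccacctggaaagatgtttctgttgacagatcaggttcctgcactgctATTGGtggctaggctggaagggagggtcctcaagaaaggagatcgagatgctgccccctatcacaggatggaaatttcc
Slc39a11 (chr11:113650093-113650342, minus strand): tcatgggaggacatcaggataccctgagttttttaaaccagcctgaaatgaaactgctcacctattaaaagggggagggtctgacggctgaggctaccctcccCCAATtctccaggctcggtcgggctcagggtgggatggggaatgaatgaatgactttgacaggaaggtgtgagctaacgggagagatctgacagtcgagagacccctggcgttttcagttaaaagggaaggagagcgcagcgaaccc
Slc25a5 (chrX:36795347-36795596, plus strand): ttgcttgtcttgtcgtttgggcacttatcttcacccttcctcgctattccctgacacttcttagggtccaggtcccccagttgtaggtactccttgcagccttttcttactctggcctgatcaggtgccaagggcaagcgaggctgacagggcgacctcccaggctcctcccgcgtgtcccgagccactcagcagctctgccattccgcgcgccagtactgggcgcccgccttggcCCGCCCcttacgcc
Slc11a1 (chr1:74374953-74375202, plus strand): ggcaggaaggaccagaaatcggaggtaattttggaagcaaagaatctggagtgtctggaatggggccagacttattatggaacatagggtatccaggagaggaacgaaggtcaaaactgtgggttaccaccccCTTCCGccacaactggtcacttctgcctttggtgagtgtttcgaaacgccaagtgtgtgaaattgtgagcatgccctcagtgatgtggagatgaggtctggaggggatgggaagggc
The motifs searched, on both strands, were the GC box GGGCGG, the CCAAT box CCAAT, an ETS site CGGAAG, the AP-1 site TGANTCA and the composite site of ATF4 and C/EBP TGATGNAA. None of the motifs is part of another, and no matches overlap in these 4 windows. The Slc38a4 window held 1 GC box, starting 200 bases before the gene start, and 1 CCAAT box at 79 bases. That of Slc39a11 held 1 CCAAT box at 147 bases, that of Slc25a5 1 GC box at 14 bases, and that of Slc11a1 1 ETS site at 117 bases. Over the 27025 genes with an entry, the shares with a match were 33% for the GC box, 34.5% for the CCAAT box, 13.8% for the ETS site, 6.85% for AP-1 and 3.53% for the composite site. Of the 46 tested Slc genes 36 had an entry, of which 25 held a GC box, 11 a CCAAT box and 9 an ETS site, and 0 held either of the other motifs. Of the called genes 13 had an entry, of which 7 held a GC box, 3 a CCAAT box and 2 an ETS site. The tested genes were chosen for being detected, and the shares among all detected genes were not computed.

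Genes that work with the carriers were read from lists. Embigin, Emb, a chaperone that brings monocarboxylate carriers to the cell surface, rose (log2 0.57 ± 0.17, adjusted p = 0.0458), with 1345, 2067 and 1649.9 at 4, 13 and 40 ng/ml and 1104, 1234 and 1331 on the controls. It was the only one of 2 chaperones with a named probe. From a list of 7 genes of glutathione and the antioxidant response, 2 were named and both rose. They were the ligase modifier Gclm (log2 0.25, adjusted p = 0.00457) and the synthetase Gss (log2 0.22, adjusted p = 0.00655). Of 5 measured genes of the amino acid response, 1 rose (Phgdh) and 2 fell (Aars and Vldlr). Of 4 tested genes of nucleoside salvage, Aprt rose and Pnp fell. Of 3 metal handling genes, metallothionein Mt1 fell. Neither of 2 glucose phosphorylation genes nor the sodium pump subunit Atp1b1 (log2 0.02) passed. Of 10 tested ABC transporter genes, 2 rose (Abcf1 and Abcf3, which act in translation rather than transport) and 1 fell (Abca5), and the 1 tested Slco transporter, Slco3a1, did not pass (log2 0.08). The median log2 changes of these lists, in the order given, were 0.57, 0.24, 0.02, -0.11, -0.21, 0.08, 0.02, 0.08 and 0.08, beside 0.005 over all probes. Calls in either direction made up 36.8% of all probes tested.

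A group of 6 genes was detected on 1 or 2 arrays and not tested. The urea transporter Slc14a1 has a pair of probes, and both were undetected on all 3 controls and detected at 13 and 40 ng/ml. One read 146, 155.5 and 159.6 at 4, 13 and 40 ng/ml, against 96.9, 107 and 102 on the controls, and the other 128, 165 and 167, against 116, 91 and 95.5. In both probes every FGF2 array was above every control. Without the filter on dim probes the first passed (log2 0.12, adjusted p = 0.0157) and the second did not (log2 0.12, adjusted p = 0.101). The scaffold gene Slc9a3r1 went the other way, with 115, 138 and 109 with FGF2 and 156, 152 and 202 without, detected on 2 controls only (log2 -0.09, adjusted p = 0.14 without the filter). Slc25a27, Slc8a1 and Slc9a8 were each detected on 1 control, and Slc25a25 at 13 ng/ml only.

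**Figure D4:**
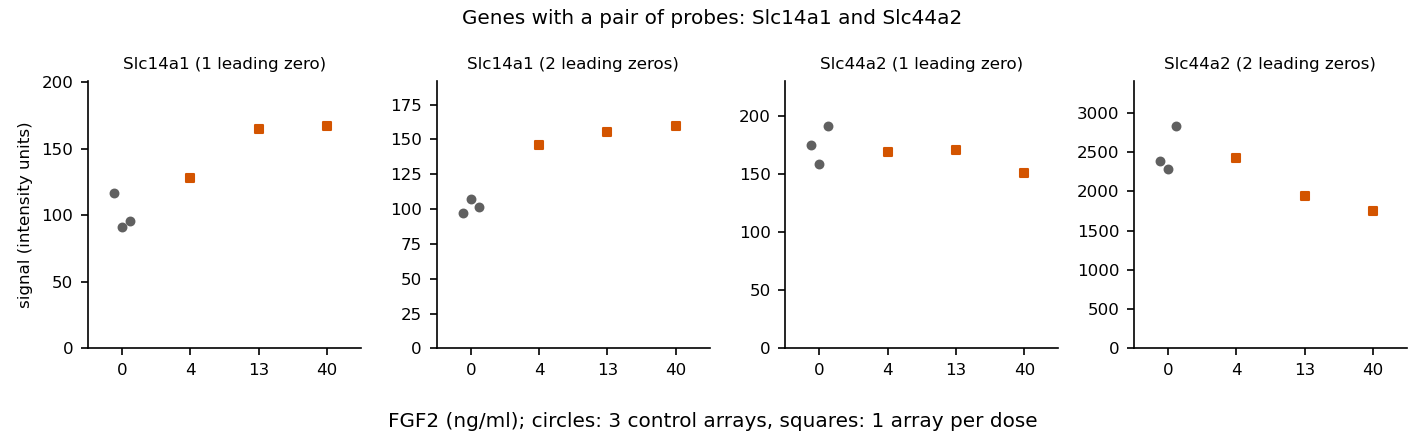
Signal (intensity units, linear axis from 0) by FGF2 dose for the paired probes of Slc14a1 and Slc44a2, with circles for the 3 control arrays and squares for the single arrays at 4, 13 and 40 ng/ml. Both Slc14a1 probes lie above the controls at every dose, whereas of the Slc44a2 probes the bright one is low at 13 and 40 ng/ml and the dim one stays among the controls except at 40 ng/ml.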

How the data were processed

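Per the labels, 300 ng of total RNA per culture was amplified, labelled with Cy3 and hybridised to one-colour Illumina bead arrays. Per the file headers and the submitters' processing notes, BeadStudio 1.0 gave the deposited signal of each probe, an intensity that is neither background-subtracted nor scaled between arrays, and a detection score from 0 to 1. A table of scaled intensity values deposited by the authors served as an alternative without a test. The small number of arrays limits the precision.

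Signals were corrected and quantile-normalised with neqc (offset 16, negative controls inferred from the detection scores) in limma 3.58.1 with R 4.3.3 and taken to log2. The 11763 probes with a score of at least 0.99 on at least 3 of 6 arrays were fitted with lmFit and eBayes, two-sided, with Benjamini-Hochberg adjustment. The comparisons were the 3 FGF2 arrays against 3 controls, each dose against the controls, and the slope per log2 of dose. The fit was tested on simulated data.

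The files hold no gene symbols. The number in an identifier was taken for the NCBI number of a gene and looked up in RefSeq (GRCm38.p6), which is an inference. Of the 46 tested genes 16, and of the 15 called genes 5 (Slc12a8, Slc4a3, Slc7a4, Slc11a1 and Slc25a30), rest on identifiers with 2 leading zeros. Where both kinds of identifier led to a tested probe (315 genes), their log2 changes had a correlation of 0.57 with neqc and 0.87 with normexp, over probes of the same arrays. A gene with several tested probes is represented by the brightest.

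The members and lists were chosen with earlier results of these data known. Named genes were the 12 largest rises and falls among those that passed, all tested members of sugar, amino acid and nucleoside families, and those undetected on 1 side only. Others were named after their values were seen. Markers of other cell types were also read. Those of endothelial (1), adipocyte (1), erythroid (2) and pluripotent (3) cells that had a named probe were detected on too few arrays to be tested. Among 3 named epithelial markers Krt18 rose (log2 0.19), whereas Krt8 and Krt19 were undetected on every array. Krt18 was detected on no control array, so it met the filter through the FGF2 arrays alone. Of 3 named neural markers Nes rose (log2 0.87), Tubb3 did not pass (log2 -0.015) and Gfap was undetected on every array. Skeletal muscle had no named probe. The counts include 2 tested genes that are not reported here.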

Additional observations from a re-analysis of the deposited data

Results flagged for a closer look

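Among Slc probes outside the comparisons, 3 were detected on at least 1 FGF2 array, above all controls, and on no control. These probes were picked for such values, and how many of all probes outside the comparisons meet the same rule was not counted. Both Slc14a1 probes were detected on 2 FGF2 arrays, and their highest signals were 159.6 and 167.1, both at 40 ng/ml. The Slc25a25 probe, read as a calcium-regulated carrier of ATP and phosphate, was detected on 1 FGF2 array. Its signals were 119, 165.3 and 125.5 at 4, 13 and 40 ng/ml, against 139.5, 150.2 and 120.9 on the controls, so that only the 13 ng/ml array stood above them.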

How the results depend on the processing

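No paired analysis was possible because the treated arrays have 1 array per dose and carry no replicate numbers. Of the 15 called genes, 5 (Slc38a4, Slc39a11, Slc44a1, Slc12a8 and Slc25a30) passed in every alternative run in which they were tested, 10 lost the call in at least 1, and 0 changed direction. Slc12a8 met the detection filter only through the controls, so its passing is not independent of its selection. It was not tested where detection on all 6 arrays was required. The number of Slc genes that rose was 6 and became 1 with scaling to the same median, and 1 to 6 without 1 array. The deposited value table gave no test. Shares of all probes that passed in the alternative settings were not computed, except with normexp at an offset of 16 for the doses together. The counts given here therefore do not show whether the Slc genes differed from all probes. The number that fell was 9 and became 14 with normexp at an offset of 50 and 14 with a trended robust prior, and 5 to 11 without 1 array. The median log2 change of -0.019 became -0.057 with scaling to the same median, -0.0041 without the filter and -0.036 with identifiers of 1 leading zero only, and -0.029 to -0.00093 without 1 array. At 4 ng/ml 3 genes passed, and 8 did without further background correction, with normexp at either offset, with normexp and a robust control spread (a setting chosen after seeing the data) and with a trended robust prior, and 1 with neqc at an offset of 50. At 13 ng/ml the 7 became 15 in the first 4 of these settings, 14 with the trended robust prior and 4 with scaling to the same median. At 40 ng/ml the 7 became 15 without further background correction, with normexp at either offset and with the trended robust prior, 16 with the robust control spread and 4 with scaling to the same median. Without 1 control replicate the counts were 0 to 2, 1 to 7 and 1 to 7 at the 3 doses. In 8 of the reported genes that did not pass, the sign turned in an alternative with a test. With scaling to the same median the log2 changes became -0.019 (Slc39a9), -0.0061 (Slc4a8), -0.021 (Slc39a3), -0.00077 (Slc19a1), -0.036 (Slc35e3). Without 1 array they ran from -0.091 to 0.042 (Slc35e1), -0.12 to 0.048 (Slc35a4), -0.0095 to 0.0077 (Slc39a9), -0.0065 to 0.024 (Slc4a8) and from -0.025 to 0.15 (Slc7a6os). In the deposited value table the sign of Slc39a1 also turned (log2 0.0057, against -0.10 with neqc). The cause of these changes was not tested. Signals near the background limit what can be seen, and 1 array per dose leaves doses without a spread of their own.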
